A study of Mus musculus with 24 samples.

Results

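Nup155, Wdr70, Gdnf, Lifr, Osmr, Slc1a3, Rictor and Dab2 lie near Nipbl on mouse chromosome 15. These 8 genes, of 19937 measured, were taken from a named list, and each was read from the brightest probe set that carried its symbol alone. They were compared between Nipbl+/- embryos, which carry 1 mutated copy of Nipbl, and wild type embryos. The comparison addresses whether genes around the mutated allele were expressed at other levels, and an effect of the allele and one of variants linked to it cannot be told apart in this design. The Nipbl+/- group held 12 embryos and the wild type group 12, all at E10.5, and each embryo's left and right hindlimb buds together gave the RNA for 1 Affymetrix Mouse Gene 1.0 ST array. Per the study, the mutants were of the RRS strain and the embryos were stage-matched littermates. Strain background, and how far the chromosome around the mutated allele was shared with the wild type, are not given in the sources used here. Values are log2 intensities per probe set, normalized between arrays by the authors, so that a difference of 1 is a ratio of 2 to 1.

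Nipbl encodes the factor that loads the cohesin ring onto DNA, and loss of 1 functional copy in humans is the main cause of Cornelia de Lange syndrome. Genes that lie close together on a chromosome are inherited together, so embryos that carry a mutated allele also carry the stretch of chromosome around it. Gdnf is a secreted growth factor, Lifr and Osmr are cytokine receptors, Slc1a3 is a membrane transporter of glutamate, Rictor and Dab2 act inside the cell in kinase signalling and endocytosis, Nup155 is a part of the nuclear pore, and Wdr70 is a repeat protein of the nucleus.

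The hindlimb markers Prrx1, Pitx1 and Tbx4 had mean log2 intensities of 12.68, 11.47 and 11.70 in Nipbl+/- and 12.64, 11.54 and 11.71 in wild type embryos, and none of the 6 hindlimb mesenchyme markers listed passed the test. The sexes were unbalanced, with 3 females among 12 Nipbl+/- and 8 females among 12 wild type embryos, as judged by Xist and Y-linked genes. Nipbl+/- embryos 2 and 9 and wild type embryo 3 stood apart. Their arrays had the narrowest spread of values, with interquartile ranges of 3.34 to 3.44 against 3.51 to 3.84 on the other 21, and the lowest weights, 0.243 to 0.434 against 0.713 to 2.20. Results that turn on these 3 arrays are given with and without them. In whole hindlimb buds, fewer cells that express a gene and less of its RNA per cell cannot be told apart.

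None of the 8 genes near Nipbl was called between the genotypes, and Nipbl itself was lower in every mutant embryo. At an adjusted p under 0.05 by limma, 0 of the 8 were called, against 0.813% of all genes (0.286% higher and 0.527% lower). By the equal-variance test on linear intensities 0 were called as well. The 8 were named with earlier results of these data known, so their shares below are descriptions. At an unadjusted p under 0.05, 4 of the 8 passed by limma, against 9.26% of all genes. Of these 4, Slc1a3 and Rictor had higher means in Nipbl+/- embryos, as 4.13% of all genes did at this p, and Dab2 and Gdnf lower ones, as 5.14% did. At an adjusted p under 0.25, 3 of the 8 passed (Slc1a3, Rictor and Dab2), against 3.12% of all genes. Under fits that allow for differences between arrays, 2 of the 8 were called with array weights (1.41% of all genes), 3 with a covariate for each array's spread (2.45%) and 3 with the main axis of the remaining variation as a covariate (2.58%). These fits are not independent of each other. The 3 arrays of lowest weight also had the narrowest spread and lay at the end of that axis. Setting array medians to 0 gave 0 calls among the 8, in a fit that called 104 of all genes. Adjusted p from limma was then 0.187 for Slc1a3, 0.346 for Rictor and 0.23 for Dab2. A covariate for embryo sex also gave 0 calls among the 8, with 125 of all genes called (limma, adjusted p = 0.234, 0.407 and 0.0878 for the same genes). The 8 differences were split, 4 positive and 4 negative, with a median of -0.014 against -0.005 over all genes, and the largest in size was 0.21. Without regard to sign their median was 0.122, against 0.04 over all genes. Nipbl ran from 9.54 to 9.97 (median 9.89) in Nipbl+/- and from 10.32 to 10.72 (median 10.53) in wild type embryos, a ratio of 0.630 with a 95% interval of 0.588 to 0.676 (adjusted p = 2.42e-09 from limma). The genotypes did not overlap for Nipbl, which held for 0.0552% of all genes.

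**Figure D1:**
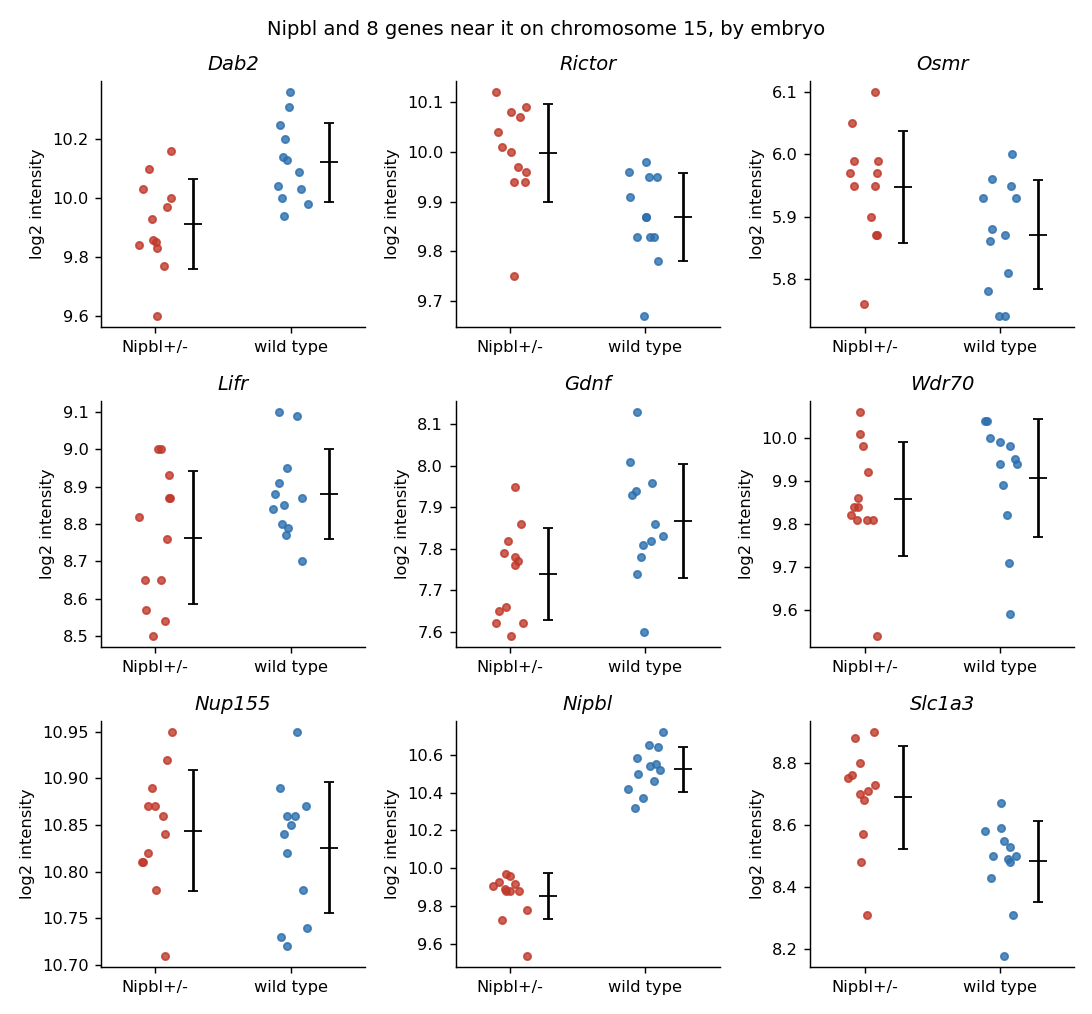
Log2 intensity of Nipbl and of the 8 genes near it in each Nipbl+/- (red) and wild type (blue) embryo, 12 of each, and, in black, each genotype's mean with its SD. Panels follow the order of the genes on the chromosome and each has its own vertical axis. For Nipbl the Nipbl+/- embryos reach 9.97 at most and the wild type embryos start at 10.32, while the genotypes overlap in every other panel.

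Slc1a3, the nearest measured gene on the far side of Nipbl, had the highest ratio of the 8. It encodes a glutamate transporter known from radial glia and astrocytes. Its log2 intensity ran from 8.31 to 8.90 (median 8.72) in Nipbl+/- embryos and from 8.18 to 8.67 (median 8.50) in wild type embryos. In 11 of 12 mutants it lay above the wild type mean, and 3 of 12 fell within the wild type range. Means were 8.69 ± 0.17 in Nipbl+/- and 8.48 ± 0.13 in wild type embryos (SD, n = 12 each), a log2 difference of 0.21 (standard error 0.059) and a ratio of 1.15 with a 95% interval of 1.06 to 1.26. This did not pass the test over all genes (adjusted p = 0.114 from limma). The highest mutant value came from embryo 2 and the lowest from embryo 9, the 2 mutant arrays that stood apart. Without the 3 arrays the log2 difference was 0.20 and passed (adjusted p = 0.0281 from limma), in a fit that called 1.11% of all genes, and without Nipbl+/- embryo 9 alone it was 0.24 (adjusted p = 0.0183). Because Slc1a3 is a glial gene, the markers of neural crest and Schwann cells are given beside it. Of 3 measured among 5 listed, Erbb3, a neuregulin receptor, was higher with a ratio of 1.19 (adjusted p = 0.0499 from limma), while Sox10 and Foxd3 had ratios of 1.01 and 1.04 (adjusted p = 0.984 and 0.884). Their summed level on the log2 scale ran from 8.85 to 9.24 in Nipbl+/- and from 8.75 to 9.07 in wild type embryos. Erbb3 was the brightest of the 3, so this sum in large part repeats its difference. The part of these markers in the Slc1a3 result was not tested.

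On the other side of Nipbl, Nup155 and Wdr70 had the smallest differences of the 8. Nup155, a scaffold protein of the inner ring of the nuclear pore, ran from 10.71 to 10.95 (median 10.85) in Nipbl+/- and from 10.72 to 10.95 (median 10.85) in wild type embryos. The ranges were nearly the same, and the ratio was 1.01 with a 95% interval of 0.967 to 1.06 (adjusted p = 0.954 from limma). Wdr70, which in human cells works with the Cul4 and Ddb1 ubiquitin ligase in the marking of histone H2B, ran from 9.54 to 10.06 (median 9.84) in Nipbl+/- and from 9.59 to 10.04 (median 9.95) in wild type embryos. Its lowest values came from Nipbl+/- embryo 2 and wild type embryo 3, and its ratio was 0.967 with a 95% interval of 0.896 to 1.04 (adjusted p = 0.889 from limma). Between Nup155 and Nipbl lies Cplane1, needed for cilia and skeletal patterning in mice, which is outside the list of 8. It had means of 9.28 ± 0.20 in Nipbl+/- and 9.19 ± 0.11 in wild type embryos (SD, n = 12 each) and a ratio of 1.07 (adjusted p = 0.741 from limma).

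The secreted ligand and the cytokine receptors were not called. Gdnf signals through the receptor Ret and is known for guiding outgrowth of the kidney duct and of motor axons into the hindlimb. It ran from 7.59 to 7.95 (median 7.77) in Nipbl+/- embryos and from 7.60 to 8.13 (median 7.85) in wild type embryos, with 11 of 12 mutants below the wild type mean but also 11 of 12 within the wild type range. Its log2 difference was -0.13 (standard error 0.051) and its ratio 0.915, with a 95% interval of 0.851 to 0.984 (adjusted p = 0.357 from limma). The highest mutant value was that of embryo 2. Without the 3 arrays that stood apart the difference was -0.17 (adjusted p = 0.105 from limma).

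Lifr and Osmr each pair with the shared receptor chain Il6st, and they confer binding of leukemia inhibitory factor and of oncostatin M. Lifr ran from 8.50 to 9.0 (median 8.79) in Nipbl+/- and from 8.70 to 9.10 (median 8.86) in wild type embryos. The mutants spread wider at the low end, with SD 0.18 in Nipbl+/- and 0.12 in wild type embryos, and 9 of 12 lay below the wild type mean. The ratio was 0.923 with a 95% interval of 0.848 to 1.01 (adjusted p = 0.592 from limma). Osmr ran from 5.76 to 6.10 (median 5.96) in Nipbl+/- and from 5.74 to 6.0 (median 5.88) in wild type embryos, with 11 of 12 mutants above the wild type mean. Its ratio was 1.06 with a 95% interval of 0.998 to 1.12 (adjusted p = 0.573 from limma). Its signal was weak, at percentile 23.7 of all genes.

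Rictor and Dab2 lay farther out, 8 and 11 measured genes from Nipbl, and their means differed in opposite directions. Rictor, the defining subunit of mTOR complex 2, which activates the kinase Akt, ran from 9.75 to 10.12 (median 10.00) in Nipbl+/- embryos and from 9.67 to 9.98 (median 9.87) in wild type embryos. In 11 of 12 mutants it was above the wild type mean, and the exception was embryo 9. Its log2 difference was 0.13 (standard error 0.041) and its ratio 1.09, with a 95% interval of 1.03 to 1.16 (adjusted p = 0.188 from limma). Without the 3 arrays that stood apart the difference was 0.14 (adjusted p = 0.0354 from limma), and without Nipbl+/- embryo 9 alone it was 0.15 (adjusted p = 0.0422).

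Dab2, a clathrin adaptor that carries receptors of the LDL receptor family into the cell, had the lowest ratio of the 8. Its log2 intensity ran from 9.60 to 10.16 (median 9.90) in Nipbl+/- embryos and from 9.94 to 10.36 (median 10.11) in wild type embryos. In 11 of 12 mutants Dab2 lay under the wild type mean, and 5 of 12 lay within the wild type range. Means were 9.91 ± 0.15 in Nipbl+/- and 10.12 ± 0.13 in wild type embryos (SD, n = 12 each), a log2 difference of -0.21 (standard error 0.057) and a ratio of 0.865 with a 95% interval of 0.798 to 0.937. Over all genes this did not pass (adjusted p = 0.0850 from limma), without the 3 arrays the difference was -0.20 (adjusted p = 0.0665), and the call was made without wild type embryo 3 (-0.23, adjusted p = 0.0490) or without Nipbl+/- embryo 4 (-0.23, adjusted p = 0.0401). A second probe set that carries the symbol Dab2 was at 3.92 in Nipbl+/- and 3.90 in wild type embryos, a difference of 0.022 (adjusted p = 0.978 from limma), and the mean of both probe sets differed by -0.09 (adjusted p = 0.347). The signal of the second was very weak. Ugt3a1, with means of 3.91 and 3.96, was at percentile 3.52 of all genes, and the brighter Dab2 probe set at 81.9. So dim a probe set can show little of a change, and it makes the difference of the mean smaller. Dab2 is also made by macrophages. All 6 macrophage markers listed had lower means in the mutants and 0 were called, with ratios of 0.915 for the receptor Csf1r and 0.866 for Mrc1 (limma, adjusted p = 0.247 and 0.388). Their summed level on the log2 scale ran from 8.92 to 9.14 in Nipbl+/- and from 8.98 to 9.27 in wild type embryos, and its part in the Dab2 result was not tested.

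**Figure D2:**
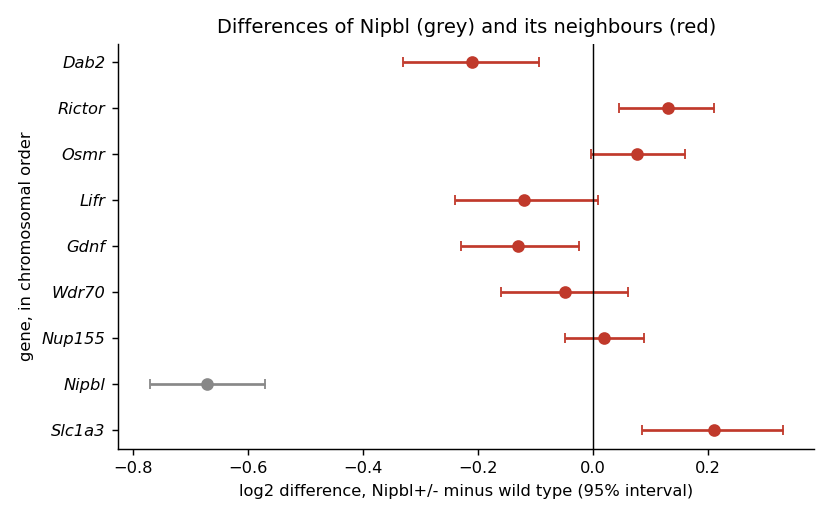
Log2 difference of each gene, Nipbl+/- minus wild type, with its 95% interval from limma (12 embryos per genotype), in chromosomal order from Dab2 at the top to Slc1a3 at the bottom. The intervals of the 8 neighbours (red) lie between -0.33 and 0.33, apart from that of Nipbl (grey), which runs from -0.77 to -0.57.

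The intervals set limits to the difference of each neighbour in array intensity, given the spread between embryos. They do not bound the change in RNA, since in the study some genes changed less by array than by quantitative RT-PCR. The lowest limit among the 8 was that of Dab2, a log2 value of -0.33, and the highest limit for Nipbl was -0.57. The difference was tested directly by subtracting Nipbl from each gene within each embryo and comparing the genotypes. All 8 contrasts were positive, from 0.46 for Dab2 (standard error 0.069, permutation p = 2.00e-05, adjusted 2.00e-05 over the 8) to 0.87 for Slc1a3 (standard error 0.073). In 12 of 12 mutant embryos every contrast was above the wild type mean. For the 7 genes other than Dab2 the two-sided permutation test gave p = 1e-05 (adjusted 1.14e-05), the smallest that 100000 resamples can give. These contrasts show unequal change, and a difference of Nipbl from genes that do not change would give the same signs and similarly small p-values. Nup155, with a ratio of 1.01 between the genotypes, also reached the smallest p and 12 of 12. The contrasts therefore do not show whether a neighbour itself changed.

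The sexes were looked at separately because females were fewer among the mutants. Within males, 9 Nipbl+/- against 4 wild type, the log2 differences were 0.27 for Slc1a3, 0.16 for Rictor, -0.18 for Gdnf and -0.14 for Dab2. Within females, 3 Nipbl+/- against 8 wild type, they were 0.13, 0.06, -0.08 and -0.35 for the same genes. The signs of these 4 genes were the same in both sexes and none was called in either (the smallest adjusted p was 0.213 from limma, for Dab2 in females). That of Wdr70 was not the same, with 0.05 within males and -0.13 within females (limma, adjusted p = 0.970 and 0.592). Whether the sexes differed was not tested.

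In the wider neighbourhood no gene was called. Nipbl had 25 measured genes before it on the chromosome, which were all there were, and the 25 after it were taken to match. Of these 50 genes, 0 were called by limma and 0 by the equal-variance test on linear intensities, 10 had an unadjusted p under 0.05, which is 20% against 9.26% of all genes, and 22 differences were positive and 28 negative. The 42 that are not on the list of 8 had 6 with an unadjusted p under 0.05 (14.3%), and the remaining 697 genes of chromosome 15 had 82 (11.8%) and 8 called genes. Of the nearest 5 on each side, 4 of 10 (40%) had an unadjusted p under 0.05, 3 higher and 1 lower. They were Slc1a3, Gdnf, Nadk2 and Lmbrd2, the last 2 with ratios of 1.09 and 1.13 (adjusted p = 0.348 and 0.333 from limma). Of the nearest 10 on each side, 5 of 20 (25%) did. Since the 8 were named with earlier results of these data known, their share is a description, and some of them are among these nearest genes. The median size of the difference, without regard to sign, was 0.060 for the 50 neighbours, 0.039 for the rest of the chromosome and 0.040 for all genes. Those of the 50 with the smallest p before Nipbl were Dab2 and Plcxd3, a phospholipase C-like protein with means of 6.02 ± 0.25 in Nipbl+/- and 6.30 ± 0.19 in wild type embryos (SD, n = 12 each; ratio 0.823, adjusted p = 0.147 from limma). After Nipbl they were Slc1a3 and Npr3, the clearance receptor of natriuretic peptides, which limits bone growth when present. Npr3 had means of 8.28 ± 0.10 in Nipbl+/- and 8.51 ± 0.18 in wild type embryos (SD, n = 12 each), a ratio of 0.851, with 0 of 12 mutants above the wild type mean (adjusted p = 0.0547 from limma).

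**Figure D3:**
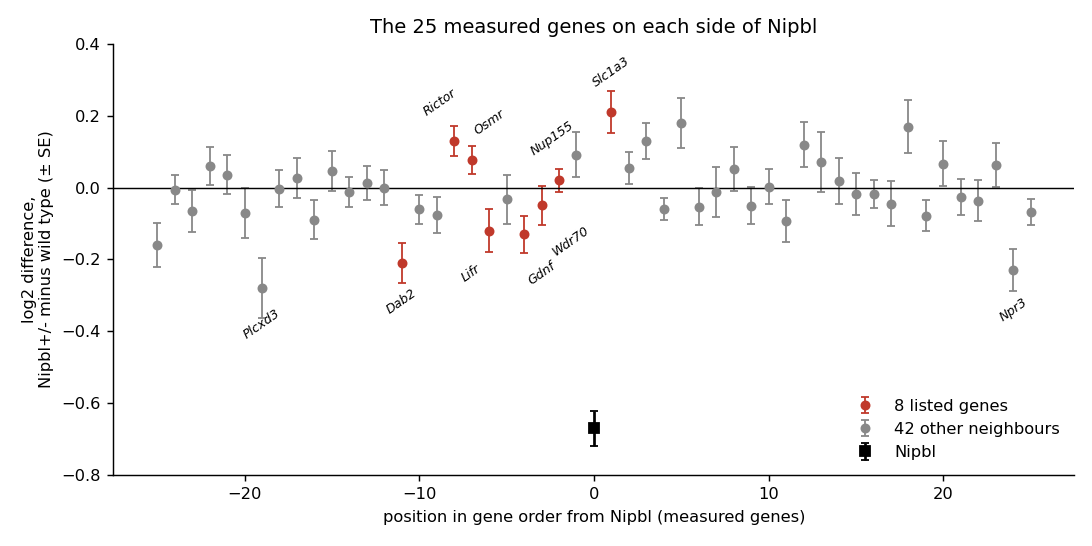
Log2 difference, Nipbl+/- minus wild type, with its standard error from limma, for the 25 measured genes on each side of Nipbl, against their position in gene order. Red points are the 8 listed genes, grey points the 42 other neighbours, and the black square Nipbl at -0.67. Of the 50 values 22 lie above 0 and 28 below 0, and of the nearest 5 on each side 6 lie above 0 and 4 below.

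Embryos of 1 genotype also differed in Nipbl, and some neighbours varied with it. Across the 12 Nipbl+/- embryos Nipbl went with Lifr (r = 0.70, permutation p = 0.00427, adjusted 0.0438 over 16 relations; rho = 0.72, permutation p = 0.0104, adjusted 0.0836) and with Wdr70 (r = 0.77, permutation p = 0.00858, adjusted 0.0458; rho = 0.54, permutation p = 0.0751, adjusted 0.258). Across the 12 wild type embryos it went with Slc1a3 (r = 0.74, permutation p = 0.00547, adjusted 0.0438; rho = 0.80, permutation p = 0.00339, adjusted 0.0542). In Nipbl+/- embryos Slc1a3 had r = -0.32 and rho = -0.13, but this negative sign was not kept when embryos were left out. Its r there was 0.12 without the 2 embryos farthest from the median of Nipbl. Leaving out the arrays that stood apart gave r = 0.16 and rho = 0.2, so a difference in sign between the genotypes is not shown. For Lifr and Wdr70 r was 0.65 and 0.40 in wild type embryos. The other 13 relations did not pass, with adjusted p from 0.0607 to 0.924 for r, and by rho none of the 16 passed. For the 3 relations that passed, r without the 2 embryos farthest from the median of Nipbl was 0.64 for Lifr and 0.29 for Wdr70 in Nipbl+/- embryos. It was 0.58 for Slc1a3 in wild type embryos. The relation of Wdr70 therefore rests on those embryos. Without the 3 arrays that stood apart, r of the same 3 relations was 0.69, 0.45 and 0.59 (adjusted p = 0.271, 0.372 and 0.271). None of the 16 relations then passed. In the first principal component of what genotype left unexplained, which held 34.3% of that variance and placed these 3 arrays at its end, Nipbl had r = -0.78, Wdr70 -0.81, Lifr -0.68 and Slc1a3 -0.42.

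**Figure D4:**
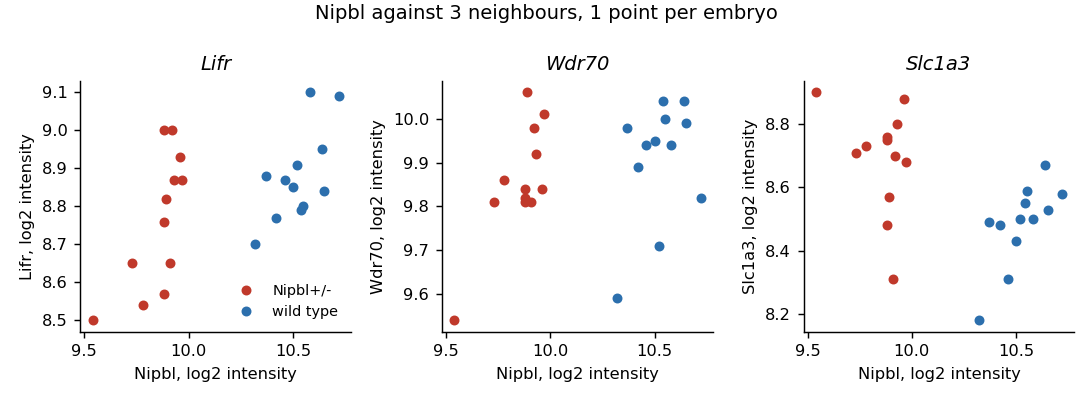
Log2 intensity of Lifr, Wdr70 and Slc1a3 (vertical axes) against that of Nipbl (horizontal axes), 1 point per embryo, for 12 Nipbl+/- (red) and 12 wild type (blue) embryos. The Nipbl+/- embryo at the far left of each panel, embryo 2 with Nipbl at 9.54, has the lowest Lifr and Wdr70 and the highest Slc1a3 of its genotype.

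With genotype means removed, the genes that varied most like each neighbour over the 24 embryos lay on other chromosomes. Chromosome 15 held 748 of the 19937 genes, so most such genes would lie elsewhere in any case. Most like Dab2 were Pth1r (r = 0.89), the receptor of parathyroid hormone-related protein, Palld (0.86) and Ilk (0.82), of the actin cytoskeleton and of integrin adhesion. For Rictor they were Ubr1 (0.88), Cep295 (0.84) and Kdm2a (0.83), for Slc1a3 Fbxl12 (0.82), Serinc5 (0.81) and Nt5m (0.81), and for Nup155 Ahcyl1 (0.82), Rif1 (0.81) and Ppat (0.80). Wdr70 was most like Glrx3 (0.90), Swap70 (0.89) and Cog2 (0.89), Lifr most like Zfp318 (0.83), Fgd6 (0.83) and Exoc7 (0.82), Gdnf most like Bcl11b (0.80), Tmem151b (0.78) and Adamts7 (0.75), and Osmr most like Rnf122 (0.73), Maneal (0.72) and Abhd12 (0.70). These are the 3 highest values over all other genes for each, and all share the arrays that stood apart. Among the 8 themselves the highest values were those of Rictor with Slc1a3 (0.61) and with Dab2 (0.57).

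Partners of the 8 genes were mostly not called. Over 7 pathway lists with 106 measured genes of 116 listed, 2 were called lower, 0 higher and 104 in neither direction, against 0.527% of all genes called lower and 0.286% higher, with a median log2 difference of 0.00. The lower ones were Dab1 and Sec13. Dab1, the relative of Dab2 that relays the Reelin signal, ran from 7.01 to 7.43 in Nipbl+/- and from 7.41 to 7.86 in wild type embryos, and 1 of 12 mutants lay within the wild type range. Its ratio was 0.748 with a log2 difference of -0.42 and a standard error of 0.052 (limma, adjusted p = 3.95e-05). It was the only one called among 22 clathrin adaptors and cargo receptors, where the LDL-family receptor Vldlr stood at 0.909 (adjusted p = 0.241). Sec13, a subunit of the outer ring of the nuclear pore that also forms the coat of vesicles leaving the endoplasmic reticulum, had means of 10.88 ± 0.072 in Nipbl+/- and 11.02 ± 0.040 in wild type embryos (SD, n = 12 each) and a ratio of 0.911 (adjusted p = 0.0270 from limma). It was called in 9 of 15 other settings. Of 26 nuclear pore genes 0 were higher, 1 was lower and 25 were not called. Their median log2 difference was 0.035 with 21 of 26 positive, against a median of -0.005 with 9269 of 19937 positive over all genes, and the list as a whole was not tested.

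In the other 5 lists no gene was called over all embryos and all genes, without covariates or weights. The counts at an unadjusted p under 0.05 stand against 9.26% of all genes. Among 14 genes of the mTOR complexes and their kinases, the ratio was 0.908 for the mTOR complex 1 inhibitor Akt1s1 (limma, adjusted p = 0.0929) and 0.886 for Sgk1, a kinase that mTOR complex 2 activates (adjusted p = 0.262), while 2 of the 14 (14.3%) had an unadjusted p under 0.05. Akt1s1 was called with array weights (limma, adjusted p = 0.0358), with each array's spread (0.0324) or the main axis of remaining variation (0.0352) as a covariate, without dim genes (0.0494), without the 3 arrays that stood apart (0.0470), and without wild type embryo 3 (0.0453) or 5 (0.0468). Sgk1 was called with the same covariates (adjusted p = 0.0400 and 0.0483). Among 10 GDNF family ligands and receptors 4 (40%) had an unadjusted p under 0.05, 3 lower and 1 higher. The lower ones included Sdc3, a proteoglycan that binds Gdnf, at 0.917 (adjusted p = 0.217) and the adhesion molecule Ncam1 at 0.878 (adjusted p = 0.271). The higher one was the receptor Gfra1 at 1.09 (adjusted p = 0.525 from limma). Among 16 genes of LIF and oncostatin M signalling 2 (12.5%) had an unadjusted p under 0.05, the kinase Tyk2 at 0.915 (adjusted p = 0.379) and the phosphatase Ptpn11 at 1.06 (adjusted p = 0.421). Of 8 genes of glutamate transport and metabolism 1 (12.5%) did, the glutamine synthetase Glul at 0.937 (adjusted p = 0.415), and the transporter Slc1a6 had 0.933 (adjusted p = 0.620). Of 10 genes of the Cul4-Ddb1 ligase and of H2B ubiquitination 0 did, with Ddb2 at 1.05 (adjusted p = 0.790) and Rnf40 at 0.976 (adjusted p = 0.840).

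**Figure D5:**
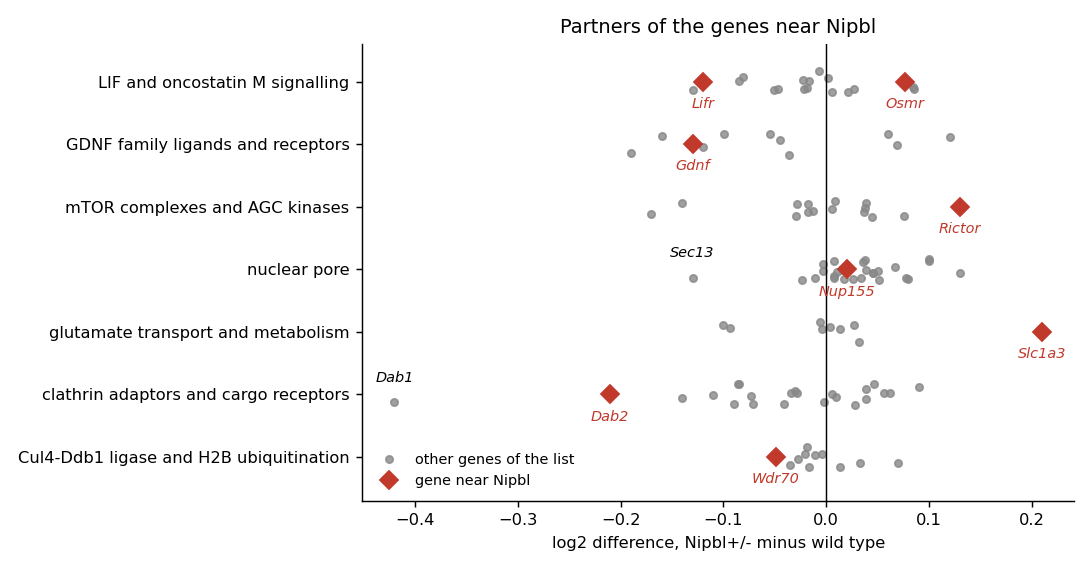
Log2 difference, Nipbl+/- minus wild type, of each gene in 7 pathway lists (grey), 1 list per row, with the gene near Nipbl that belongs to the list in red. Dab1 at -0.42 and Sec13 at -0.13 are the genes called at an adjusted p under 0.05, and Slc1a3 at 0.21 lies to the right of its list, which ends at 0.03.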

How the data were processed

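The authors turned scanned arrays into expression values in GenePattern (Expression File Creator). RMA is the tool listed in the submitters' processing notes, with no version. The deposited values are log2 intensities per probe set, corrected for background and normalized between arrays. Probe sets with a single gene symbol (21640 of 28159) were reduced to the brightest of each gene, which left 19937 genes, among them all 8 near Nipbl. Gene order was taken from RefSeq (GRCm38.p6).

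Genotypes were compared by limma 3.58.1 (R 4.3.3) as Nipbl+/- minus wild type. P-values were adjusted by Benjamini-Hochberg across the 19937 genes, a gene was called under 0.05, and intervals are 95%. On simulated data of the same size the fit called 0% of 50 genes changed by a log2 value of 0.1. It called 40% at 0.2, 80% at 0.3 and 98% at 0.6, with 4 false calls. The simulated noise was independent between genes, without variation shared across an array and without the imbalance of the sexes. These rates therefore need not hold for the real arrays. Correlations and contrasts with Nipbl were tested with 100000 permutations in Python 3.11.15, two-sided. The number of arrays limits the precision. Genes named were the 8, Nipbl, the nearest and the 2 most significant neighbours per side, called genes or the 2 with the smallest p per pathway list, and the 3 most correlated genes; other genes were added after their values were seen. Members and lists were chosen with earlier results of these data known. P-values measure the spread between embryos of these litters.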

Additional observations from a re-analysis of the deposited data

How the results depend on the processing

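The log2 differences of the 8 genes kept their sign under all 15 settings tried (14 for Osmr, which a filter on dim genes removed), except that of Wdr70, which was 0.0464 within males. Nipbl was called under each of them (-0.67 to -0.65). Some of these settings cannot move the difference, so an unchanged sign there is no check. These are the first residual principal component, the replicate block, trended and robust variance, the filter on dim genes and all probe sets kept apart. The mean of the probe sets of a gene is another, except for Dab2. Over all genes 162 were called, against 104 with array medians set to 0, 281 with array weights, 489 with each array's interquartile range as a covariate, 515 with the first residual principal component, 7 within females, 1 within males and 622 at an adjusted p under 0.25. The covariate, the sexes, the set without the 3 arrays and a centring over named genes were chosen after seeing the data. Of the 8 genes near Nipbl, 0 were called, against 2 with array weights (Slc1a3 at 0.22 and Dab2 at -0.21, adjusted p = 0.0151 and 0.0372, in a fit that called 1.41% of all genes), 3 with the interquartile range (Slc1a3 at 0.20, Rictor at 0.12 and Dab2 at -0.22, adjusted p = 0.0352, 0.0416 and 0.0173; 2.45% of all genes), 3 with the first principal component (0.21, 0.13 and -0.21 for the same genes, adjusted p = 0.0342, 0.0357 and 0.0248; 2.58% of all genes), 2 without the 3 arrays of lowest weight (Slc1a3 at 0.20 and Rictor at 0.14) and 3 at an adjusted p under 0.25, a threshold that 3.12% of all genes passed. Over all settings the adjusted p ran from 0.0151 to 0.725 for Slc1a3, from 0.0354 to 0.837 for Rictor, from 0.0173 to 0.794 for Dab2 and from 0.0804 to 0.785 for Gdnf. With the mean of both its probe sets, of which the second had a very weak signal, the difference of Dab2 was -0.09. The weights, the interquartile range and the first component all set the same 3 arrays apart, so the calls of these fits are not independent.

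Of the 50 neighbours 0 were called, against 3 with array weights, 4 with the interquartile range, 4 with the first principal component, 1 with trended and robust variance, 1 without dim genes, 2 without the 3 arrays and 5 at an adjusted p under 0.25. Npr3 was the one called with trended variance (adjusted p = 0.0444) and without dim genes (0.0339). With replicate number as a block the 1 neighbour called was Plcxd3 (-0.28, adjusted p = 0.0122). In the lists 2 partners were called, against 1 with array medians set to 0 over either set of features, 1 with the covariate for sex, 1 with the replicate block, 4 with the interquartile range or the first component (Akt1s1 and Sgk1 added), 3 without the 3 arrays (Akt1s1 added), and 0 within females or males. Dab1 was called in 13 of 15 settings (adjusted p from 2.60e-06 to 0.150) and Sec13 in 9 of 15 (0.0014 to 0.703). Of 16 relations with Nipbl 3 passed, against 8 with array medians set to 0 and 0 without the 3 arrays.

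Leaving out 1 embryo at a time gave 113 to 197 calls over all genes, 0 to 2 of the 8, and 0 to 2 of the 50 neighbours, where Npr3 was called without Nipbl+/- embryo 12 or wild type embryo 3, 5 or 6. The difference then ran from 0.18 to 0.24 for Slc1a3, 0.11 to 0.15 for Rictor, -0.23 to -0.18 for Dab2, -0.15 to -0.10 for Gdnf, -0.14 to -0.09 for Lifr, 0.06 to 0.09 for Osmr, -0.08 to -0.02 for Wdr70, 0.01 to 0.03 for Nup155 and -0.68 to -0.64 for Nipbl. Same-numbered embryos did not deviate together (r from -0.35 to 0.28, with 5 of 12 pairs over 0.1), so the replicate block is only an alternative; under it 169 genes were called, 0 of the 8 among them. The cause of these changes was not tested. The standard errors of the 8 differences ran from 0.033 to 0.06.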
